A study of Mus musculus with 10 samples.

Results

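Egr1, Egr2, Egr3, Nr4a1, Nr4a2, Nr4a3, Myc, Zfp36, Ier2 and Ier3 are 10 early response genes, taken from a named list, and each was read by its probe set annotated to exactly 1 gene symbol with the highest mean over the 10 arrays. All 10 were measured, among 19938 genes in all, and each had 1 such probe set. The arrays were hybridised with labelled cDNA from 2 lines of immortalized mouse macrophages. These were a TLR9KO line that lacks Toll-like receptor 9, an endosomal receptor for DNA, and a wild-type line. The sample titles and source names give B6 for the wild-type bead arrays only, and no strain for the knockout arrays. There were 2 knockout arrays with β-1,3 glucan beads, 2 unstimulated knockout arrays, 3 wild-type arrays with beads and 3 unstimulated wild-type arrays. Beads, particles of a fungal cell wall sugar, were given at 20 per cell for 4 h. Each genotype was 1 line, so the genotype and other differences between the lines cannot be told apart, and the sources used here do not say how either was immortalized. Nothing in the labels ties the arrays of a group to separate cultures. The p-values therefore rest on the spread among arrays, which may be technical.

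Early response genes are transcribed soon after a cell receives a signal, from factors already present, and many of their transcripts fade again within hours. Egr1, Egr2 and Egr3 encode zinc finger factors that bind GC-rich DNA, Nr4a1, Nr4a2 and Nr4a3 encode orphan nuclear receptors, and Myc encodes a factor that drives growth and ribosome production. Zfp36 encodes tristetraprolin, which binds AU-rich elements in cytokine transcripts such as Tnf and recruits the machinery that removes their poly(A) tails. Stimulated macrophages induce many of these genes, and tristetraprolin then helps to end the cytokine burst.

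Values are the authors' log2 signals, made with RMA per the submitters' processing notes, and a difference of 1 is a doubling of signal. Of the 9 macrophage markers checked, 8 had a mean rank above the 75th percentile of the probe sets. All 6 granulocyte markers lay below the median, as did 4 of 5 dendritic cell and 4 of 5 lymphocyte markers. Only 2 of 5 fibroblast markers did. No marker of these other cell types lay above the 75th percentile. Tlr9 itself read 7.31 to 7.62 on the knockout arrays and 6.91 to 7.44 on the wild-type arrays, and the sources used here do not place its probe set inside or outside the deletion, so that this reading checks nothing. Wild-type bead array 3 stood apart, with a mean correlation to its group mates of 0.973 across genes, against 0.985 to 0.997 on the other arrays, and with the highest median signal (6.10, against 5.75 to 5.97). For the 10 genes, a difference that changed direction or moved by over 1.5 times without that array is also given without it.

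The 10 genes fell into those that differed strongly between the lines (Zfp36, Egr1 and Egr2), one that was high on the knockout bead arrays (Myc), and 6 that differed little. Without beads, Zfp36, Egr1 and Egr2 were higher in the knockout line, 4.85-fold, 3.01-fold and 1.97-fold, and none of the 10 was lower by the test. The count was 3 of 10 at an adjusted p under 0.05 (limma, adjusted over all genes by the Benjamini-Hochberg method), where 8.25% of all genes tested passed and 3.79% passed as higher. The median difference of the 10 was 0.25, against 0.02 over all genes. The arrays of the 2 lines did not overlap for 6 of the 10 genes, which also held Nr4a1, Nr4a2 and Ier2, and 38.8% of all genes had arrays that did not overlap.

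Egr1, a zinc finger factor induced through the MAP kinase ERK and serum response factor, read 7.78 and 7.52 on the unstimulated knockout arrays and 6.06, 5.85 and 6.25 on the unstimulated wild-type arrays. Both knockout arrays lay more than 1 log2 unit above every wild-type array, and the difference was 1.59 ± 0.17 (SE of the fit, n = 2 and 3), with an adjusted p of 4.85e-04. Egr2, a related factor known in myeloid cells for its part in macrophage differentiation, read 7.77 and 7.75 in the knockout line and 6.88, 6.63 and 6.82 in the wild-type line. Its difference was 0.98 ± 0.13 (adjusted p = 0.00179). Egr3, the third family member measured, read 7.22 and 7.39 in the knockout line and 7.29, 7.05 and 7.39 in the wild-type line, so that the groups overlapped. Its difference was 0.06, with a 95% interval from -0.31 to 0.43, and it did not pass (adjusted p = 0.998). By these probe sets, Egr1 and Egr2 passed in this comparison and Egr3 did not. The Egr3 signal lay between the 66th and 75th percentile of the probe sets on every array. Without detection calls, whether it was above background was not tested.

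Zfp36 had the largest difference of the 10. It read 9.21 and 8.47 on the unstimulated knockout arrays and 6.71, 6.39 and 6.59 on the unstimulated wild-type arrays. The lowest knockout array lay well above the highest wild-type array, although the spread was wider in the knockout line (SD 0.52, against 0.16 in the wild-type line). The difference was 2.28 ± 0.31 (adjusted p = 0.00181), and it ran from 1.91 to 2.65 when 1 array at a time was left out.

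Promoter windows of RefSeq genes (build GRCm38.p6, 250 bases before to 50 after a start site) were at hand for 6 of the 10 genes, namely Egr2, Nr4a1, Nr4a2, Nr4a3, Zfp36 and Ier3. Promoters of Egr1, Egr3, Myc and Ier2 were not analysed here. Windows are shown for Zfp36 and Egr2, the members with a window that differed between the lines, and for Nr4a3, which stayed level. Both strands were searched for the CArG box, the site of serum response factor, for the kappaB site, for TGACGT (core of the cyclic AMP response element), for GCGNGGGCG (an Egr site) and for the core of the interferon response element (GAAA, any 2 bases, GAAA). These motifs were chosen after the members' values were known. Capitals mark the matches, which do not overlap in these 3 windows, and each sequence runs 5′ to 3′ on the gene's own strand. The windows lie at chr7:28379179-28379478 (Zfp36, minus strand), chr10:67537619-67537918 (Egr2, plus strand, 1 of 5 windows of the gene) and chr4:48045055-48045354 (Nr4a3, plus strand).
Zfp36: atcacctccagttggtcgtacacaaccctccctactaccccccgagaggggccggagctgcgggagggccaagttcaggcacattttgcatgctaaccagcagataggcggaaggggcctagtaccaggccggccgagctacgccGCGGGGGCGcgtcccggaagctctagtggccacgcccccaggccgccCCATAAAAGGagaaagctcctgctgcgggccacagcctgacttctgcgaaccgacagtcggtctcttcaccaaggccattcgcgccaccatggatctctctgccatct
Egr2: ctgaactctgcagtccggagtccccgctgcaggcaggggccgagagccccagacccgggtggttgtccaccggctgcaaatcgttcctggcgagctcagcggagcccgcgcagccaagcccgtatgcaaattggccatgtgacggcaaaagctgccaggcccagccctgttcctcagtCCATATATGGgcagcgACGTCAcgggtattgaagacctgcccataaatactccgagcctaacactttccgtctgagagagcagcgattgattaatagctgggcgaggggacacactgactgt
Nr4a3: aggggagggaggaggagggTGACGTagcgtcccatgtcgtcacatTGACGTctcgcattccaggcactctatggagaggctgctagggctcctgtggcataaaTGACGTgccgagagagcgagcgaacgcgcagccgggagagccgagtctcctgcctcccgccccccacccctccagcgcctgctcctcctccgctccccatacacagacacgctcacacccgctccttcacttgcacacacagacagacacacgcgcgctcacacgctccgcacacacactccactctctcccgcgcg

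The Zfp36 window held a CArG box from 58 to 49 bases before the start and a GCGNGGGCG match from 105 to 97 bases before it. The Egr2 window held a CArG box from 72 to 63 bases before the start and TGACGT, on the other strand, from 56 to 51 bases before it. A CArG box was in 4 of the 5 Egr2 windows, several of which overlap and share the same box. It was also in the Zfp36 window, and in none of the windows of the other 4 members. Over all 32851 windows it was in 1.63%, and 1.81% of all genes with a window had it in at least 1. The Nr4a3 window held TGACGT at 3 places, a motif found in 7.51% of all windows. GCGNGGGCG was also in the windows of Nr4a1 and Nr4a2 (5.55% of all windows). The kappaB site was in those of Nr4a1 and Ier3 and in 1 Egr2 window (26.8% of all windows), and the interferon response core was in no window of the 6 members (3.44% of all windows). A match describes the letters in the window and says nothing of binding.

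**Figure D1:**
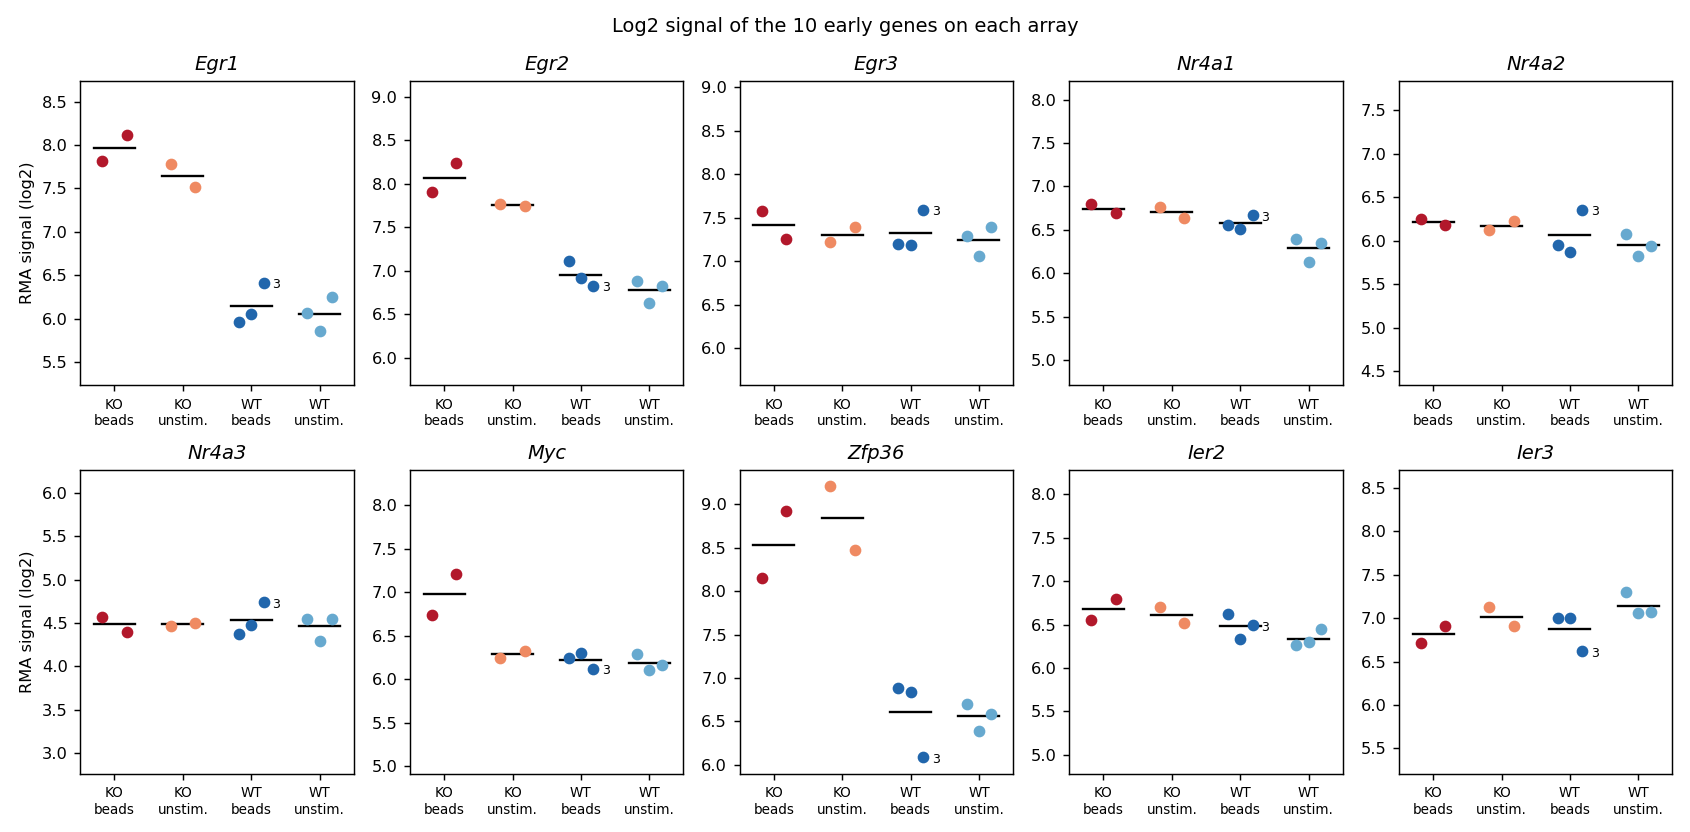
Log2 RMA signal (vertical axis, each panel spanning the same number of log2 units) of each of the 10 genes on the knockout arrays with beads and unstimulated and the wild-type arrays with beads and unstimulated. Points are single arrays, bars are group means, and 3 marks wild-type bead array 3. Zfp36, Egr1 and Egr2 part the lines, and Myc is high on the knockout bead arrays only. Levels are not comparable between panels, since each gene has its own probe set.

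Nr4a1, which encodes the orphan receptor Nur77 and is known to restrain inflammatory genes in macrophages, came just short of the threshold. It read 6.77 and 6.64 on the unstimulated knockout arrays and 6.39, 6.13 and 6.34 on the unstimulated wild-type arrays, a difference of 0.41 ± 0.11 (adjusted p = 0.0505). The arrays did not overlap, and the call was made without wild-type bead array 3 (adjusted p = 0.0122). That array is not in this comparison, so the difference stayed at 0.41 while the SE fell to 0.10. The call was not made without unstimulated wild-type array 2 (0.33, adjusted p = 0.15) or after median centring (0.36, adjusted p = 0.12). Nr4a2, known for its part in dopamine neurons, read 6.12 and 6.22 in the knockout line and 6.08, 5.82 and 5.94 in the wild-type line. Its difference of 0.22 ± 0.15 did not pass (adjusted p = 0.599). Nr4a3 read 4.47 and 4.50 in the knockout line and 4.55, 4.29 and 4.54 in the wild-type line, with a 95% interval of the difference from -0.27 to 0.32. Its signal lay between the 17th and 22nd percentile of the probe sets on every array. The files hold no detection calls, so whether Nr4a3 was above background was not tested.

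Myc read 6.25 and 6.32 on the unstimulated knockout arrays and 6.28, 6.11 and 6.16 on the unstimulated wild-type arrays, so that the lines overlapped. The difference was 0.10, with a 95% interval from -0.22 to 0.42 (adjusted p = 0.978). Ier2, a nuclear protein of the early response, read 6.70 and 6.52 in the knockout line and 6.27, 6.30 and 6.45 in the wild-type line (0.27 ± 0.13, adjusted p = 0.319). Ier3, which encodes the stress-inducible survival factor IEX-1 and is itself a known tristetraprolin target, read 7.12 and 6.91 in the knockout line and 7.30, 7.06 and 7.07 in the wild-type line. It was the 1 gene of the 10 with a negative value (-0.12 ± 0.15, adjusted p = 0.937).

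With beads, Zfp36, Egr1 and Egr2 were again higher in the knockout line, and Myc was higher as well. The count was 4 of 10, against 7.22% of all genes tested and 3.82% as higher, and no member was lower by the test. The median difference was 0.18, against -0.01 over all genes. This comparison shares no array with the one without beads, though both come from 1 fit. The arrays did not overlap for 5 of the 10 genes, these 4 and Nr4a1, where 23.6% of all genes had arrays that did not overlap.

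Egr1 read 7.81 and 8.12 on the knockout bead arrays and 5.96, 6.06 and 6.41 on the wild-type bead arrays, a difference of 1.82 ± 0.17 or 3.53-fold (adjusted p = 2.25e-04). Egr2 read 7.90 and 8.24 with beads in the knockout line and 7.11, 6.92 and 6.83 with beads in the wild-type line, a difference of 1.12 ± 0.13 or 2.17-fold (adjusted p = 8.37e-04). Every knockout bead array again lay above every wild-type bead array for both genes. Without wild-type bead array 3 the differences were 1.96 for Egr1 and 1.06 for Egr2, and both still passed.

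Zfp36 read 8.15 and 8.92 on the knockout bead arrays and 6.89, 6.84 and 6.09 on the wild-type bead arrays. The lowest wild-type value was that of array 3. The difference was 1.93 ± 0.31 or 3.82-fold (adjusted p = 0.00493), and 1.67 without array 3. The call ended without knockout bead array 2 (1.55, adjusted p = 0.069) and in a fit of the bead arrays alone (adjusted p = 0.0551).

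Myc read 6.74 and 7.21 with beads in the knockout line and 6.24, 6.30 and 6.12 with beads in the wild-type line. Both knockout bead arrays lay above all other arrays of the series, and array 2 was the higher of them. The difference between the lines was 0.76 ± 0.14 or 1.69-fold (adjusted p = 0.0101). That call ended without knockout bead array 2 (0.52, adjusted p = 0.0984), after each array was centred on its median (0.73, adjusted p = 0.106) and in a fit of the bead arrays alone (adjusted p = 0.123), and it held without wild-type bead array 3 (0.71, adjusted p = 0.00477).

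The other 6 genes did not pass with beads. Nr4a1 read 6.79 and 6.69 on the knockout bead arrays and 6.55, 6.51 and 6.67 on the wild-type bead arrays (0.16 ± 0.11, adjusted p = 0.662). Nr4a2 read 6.25 and 6.19 with beads in the knockout line and 5.95, 5.87 and 6.36 with beads in the wild-type line (0.16 ± 0.15), array 3 being the highest of the 5. Without array 3 the Nr4a2 difference was 0.30 (adjusted p = 0.0587). Egr3 (0.08), Nr4a3 (-0.05), Ier2 (0.19) and Ier3 (-0.06) had intervals that included 0, and their arrays overlapped. Without array 3 the values were 0.22 for Egr3, 0.05 for Nr4a3 and -0.19 for Ier3, and none passed.

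**Figure D2:**
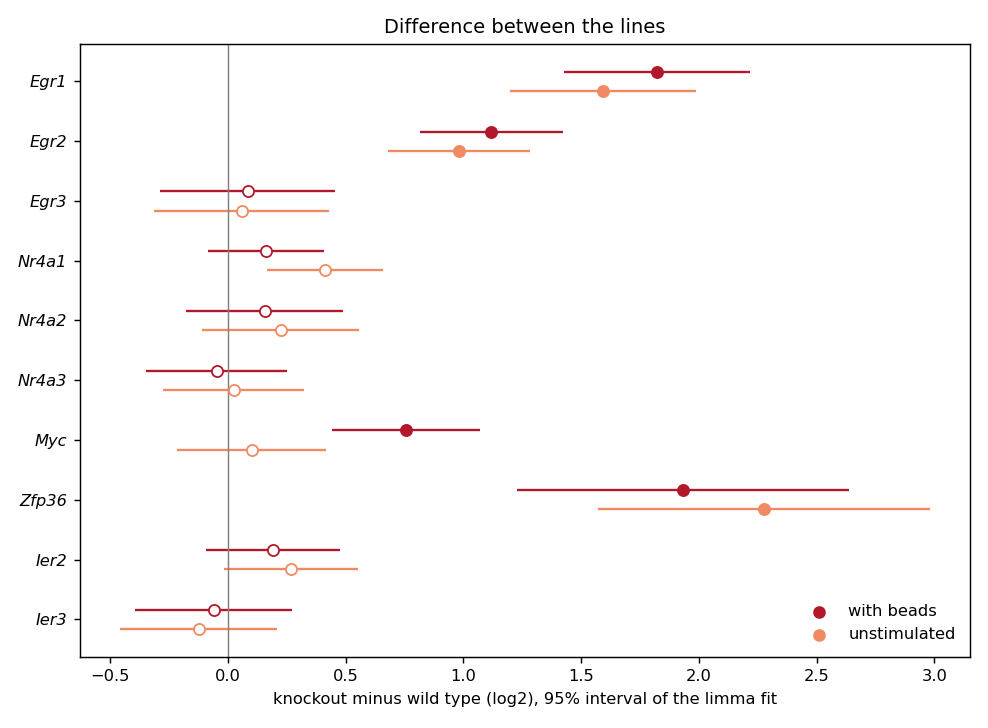
Difference between the knockout and the wild-type line for each gene (horizontal axis, log2, with the 95% interval of the limma fit), with beads and unstimulated. Filled points passed at an adjusted p under 0.05. Zfp36, Egr1 and Egr2 passed in both comparisons and Myc with beads only, which is not a test of whether the comparisons differ.

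The bead response of each line asks what 4 h with β-1,3 glucan changed. No other time with beads was sampled, so a rise that had faded by 4 h would not be seen. No member passed in either line, and neither did any other gene of the 19938 (0%) in limma. In the knockout line 1 of the 10 had an unadjusted p under 0.05, as did 1.8% of all genes (359). In the wild-type line it was also 1 of 10, against 0.838% of all genes (167). The median response of the members was 0.06 in the knockout line and 0.09 in the wild-type line, and that of all genes was 0.00 and 0.01. The bead and unstimulated arrays did not overlap for 3 members in the knockout line, all higher with beads, where 24.4% of all genes had no overlap, and for 2 in the wild-type line, where 3.53% had none.

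Myc had the largest response of the members in the knockout line. The bead arrays, at 6.74 and 7.21, lay above the unstimulated arrays, at 6.25 and 6.32. The response was 0.69 ± 0.15 or 1.62-fold, with an unadjusted p of 0.00138 that did not survive adjustment over all genes (adjusted p = 0.785), and it ranked 26th highest of the 19938 genes. It was 0.45 without knockout bead array 2. In the wild-type line the Myc response was 0.04 ± 0.13, and 0.09 without array 3. The difference between the 2 responses was 0.66, with a 95% interval from 0.21 to 1.10, and 0.42 without knockout bead array 2. It had an unadjusted p of 0.00877 and an adjusted p of 1, so a difference between the lines in the Myc response was not shown after adjustment.

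Egr1 and Egr2 had bead arrays above their unstimulated arrays in the knockout line, with responses of 0.32 ± 0.19 and 0.31 ± 0.15 (unadjusted p = 0.132 and 0.0632). These were 0.16 and 0.14 without knockout bead array 2, and 0.47 and 0.48 without knockout bead array 1. In the wild-type line the responses were 0.09 ± 0.16 for Egr1 and 0.17 ± 0.12 for Egr2, and the arrays overlapped. The Egr1 value changed direction without array 3, at -0.05. The Zfp36 response was -0.30 ± 0.34 in the knockout line, and it changed direction without knockout bead array 1 (0.08) or unstimulated knockout array 1 (0.07). In the wild-type line it was 0.04 ± 0.28, and 0.30 without array 3.

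In the wild-type line Nr4a1 was the member with the largest response. Its bead arrays, at 6.55, 6.51 and 6.67, lay above the unstimulated arrays, at 6.39, 6.13 and 6.34. The response was 0.29 ± 0.10 or 1.22-fold (unadjusted p = 0.0156, adjusted p = 1), and 0.24 without array 3. In the knockout line it was 0.04 ± 0.12. Ier3 went the other way, with wild-type bead arrays of 7.00, 7.00 and 6.62 that lay below the unstimulated 7.30, 7.06 and 7.07, a response of -0.27 ± 0.13 that was -0.14 without array 3. Its response in the knockout line was -0.20 ± 0.16.

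Egr3, Nr4a2, Nr4a3 and Ier2 had responses between -0.00 and 0.14 in both lines, and their bead and unstimulated arrays overlapped in each. Without array 3 the wild-type responses of Egr3, Nr4a2 and Nr4a3 changed direction, at -0.05, -0.03 and -0.03. For the difference between the 2 responses, 0 of 10 members and 0% of all genes passed in limma, and 1 member and 0.863% of all genes (172) had an unadjusted p under 0.05. Apart from Myc, these differences ran from -0.34 for Zfp36 to 0.23 for Egr1. The Zfp36 value was 0.04 without knockout bead array 1 and -0.73 without knockout bead array 2, and the Egr1 value was 0.38 and 0.07 in those fits. Without wild-type bead array 3 the differences were -0.60 for Zfp36, 0.36 for Egr1, 0.07 for Egr2 and 0.16 for Egr3. In that fit Nr4a2 (0.08), Nr4a3 (0.03) and Ier3 (-0.06) changed direction. The comparisons of the lines and of the treatments share arrays, so their values for a member are not independent.

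**Figure D3:**
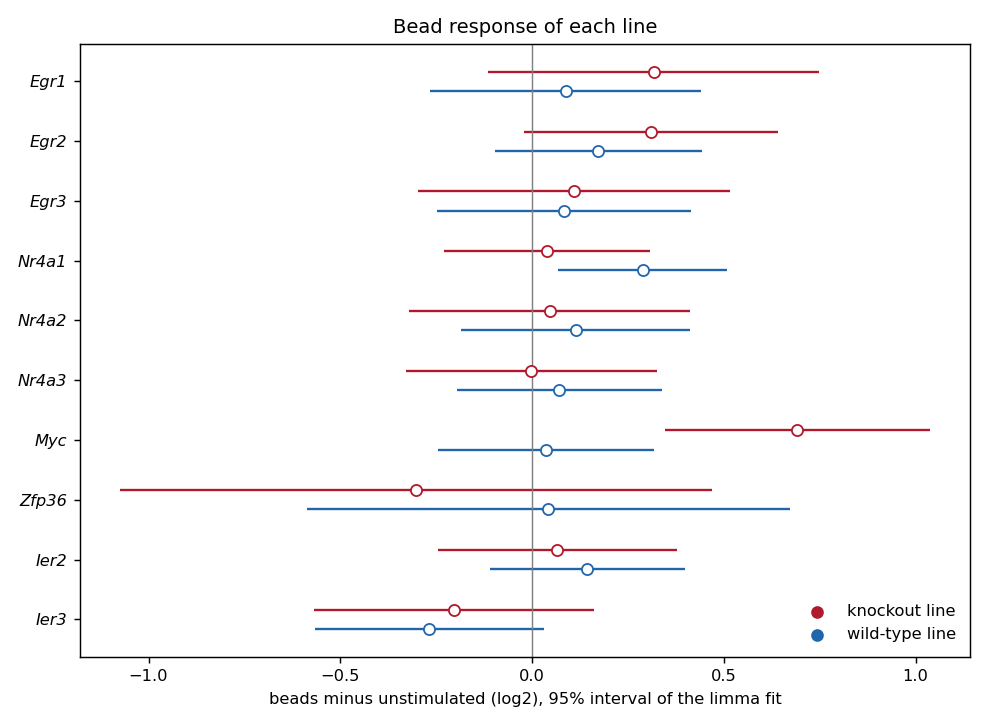
Bead response of each gene in the knockout and the wild-type line (horizontal axis, beads minus unstimulated, log2, with the 95% interval of the limma fit). No point is filled, since none passed at an adjusted p under 0.05. The Myc interval in the knockout line and the Nr4a1 interval in the wild-type line lie above 0 before any adjustment.

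Ordered by mean log2 signal, Egr1 and Egr2 ran from knockout with beads through knockout unstimulated and wild type with beads to wild type unstimulated. For both genes only the 2 wild-type groups overlapped. Zfp36 was highest in the unstimulated knockout line, and its order within each line was not separated, since the arrays overlapped. Myc was highest in knockout with beads, and its other 3 groups overlapped with their neighbours. Nr4a1 had wild type unstimulated at the bottom, apart from wild type with beads. Among the 3 groups above, neighbours overlapped, but knockout with beads did not overlap with wild type with beads. Nr4a2 and Ier2 had the same order as Egr1, with all neighbours overlapping, and no neighbours were separate for Egr3, Nr4a3 and Ier3.

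The partners and targets of these genes were read from lists that were drawn up with earlier results of these data known. Of all genes, 3.79% passed as higher and 4.46% as lower without beads, and 3.82% and 3.4% with beads. Among 42 other immediate early genes, 15 were higher and 2 lower in the unstimulated knockout line (median 0.36). The highest differences were those of Klf6 (3.12 ± 0.13), Fos (2.35 ± 0.15), the phosphatase gene Dusp1 (2.21 ± 0.15) and Rgs2, an inhibitor of G protein signalling (1.52 ± 0.24). With beads the count was 16 higher and 1 lower, again with Dusp1, Klf6, Fos and Rgs2 first. Of these 8 calls, that of Rgs2 without beads ended under 2 of 17 alternatives. Serum response factor itself (Srf) differed by -0.01 ± 0.11 without beads. Of the 7 genes for serum response factor, its cofactors and ternary complex factors, Elk3 alone passed, at 1.20 ± 0.18 without and 1.47 ± 0.18 with beads, and its call without beads ended under 1 of 17 alternatives. None of 4 Egr partners passed in either comparison, the NAB corepressor genes Nab1 and Nab2 among them.

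The retinoid X receptor gene Rxra, whose product pairs with Nr4a1 and Nr4a2, was lower in the knockout line by -2.05 ± 0.16 without beads and -1.98 ± 0.16 with beads, and Rxrb and Rxrg did not pass. In the Max-centred network of Myc, 1 of 12 genes passed, a share near the 8.25% of all genes. It was the repressor gene Mxd4, higher by 1.80 ± 0.21 without and 1.18 ± 0.21 with beads, and the call with beads ended under 3 of 17 alternatives. Of 20 genes known to be induced by Myc, 6 were lower and 1 was higher in the unstimulated knockout line, with a median of -0.38. The transferrin receptor gene Tfrc (-1.70 ± 0.10), the nucleolar Nolc1 (-0.80 ± 0.13) and the pyrimidine synthesis gene Cad (-0.79 ± 0.13) were lower, and the cyclin gene Ccnd2 was higher (2.92 ± 0.13). The calls of Nolc1 and Cad each ended under 1 of 17 alternatives. With beads, where Myc itself was higher, 2 were lower and 1 higher, with a median of -0.25. The response of these 20 genes to beads had a median of 0.14 in the knockout line and -0.01 in the wild-type line, and none passed in either line.

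Among 31 factors of mRNA decay, 5 were higher and 2 lower in the unstimulated knockout line. The Zfp36 paralogs Zfp36l1 (0.40 ± 0.22) and Zfp36l2 (0.24 ± 0.17) did not pass. Btg1, a partner of the CCR4-NOT deadenylase, was higher by 1.74 ± 0.14, and the CCCH zinc finger genes Zc3h12d and Zc3h12c by 1.48 ± 0.20 and 0.71 ± 0.14, the Zc3h12c call ending under 5 of 17 alternatives. Mapkapk3 and Mapkapk2, which encode kinases of a family that phosphorylates and restrains tristetraprolin, were lower in both comparisons of the lines. Mapkapk3 differed by -0.62 ± 0.10 in each, and Mapkapk2 by -0.50 ± 0.11 without and -0.71 ± 0.11 with beads. The Mapkapk3 call without beads ended under 2 of 17 alternatives and the Mapkapk2 call with beads under 3. With beads 4 decay factors were higher and 2 lower. Of 12 transcripts known to be destabilised by tristetraprolin, Ier3 included, Tnf (0.83 ± 0.12) was higher and Ccl2 (-1.28 ± 0.17) and Ccl3 (-0.58 ± 0.12) were lower without beads, and the other 9 did not pass. The Ccl3 call ended under 5 of 17 alternatives and the Tnf call under 1, after median centring (adjusted p = 0.0774). With beads Ptgs2 (1.10 ± 0.20) and Tnf (0.69 ± 0.12) were higher and Ccl2 (-1.03 ± 0.17) and Ccl3 (-0.51 ± 0.12) lower. Those calls ended under 4 alternatives for Ptgs2, 3 for Tnf, 3 for Ccl2 and 9 for Ccl3. No gene of these lists passed in either bead response.

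The macrophage markers moved with the line as well. Their mean log2 signal was 10.6 to 10.8 on the knockout arrays and 9.88 to 10.4 on the wild-type arrays. The 9.88 was that of wild-type bead array 3, and the next lowest was 10.2. In both comparisons of the lines 4 of 9 were higher (Cd14, Fcgr1, Adgre1 and Csf1r) and 1 was lower (Mertk). The Adgre1 call ended under 3 of 17 alternatives without beads and 4 with beads, and the Fcgr1 call with beads ended under 3. Csf1r was not run under the alternatives. No granulocyte, dendritic cell, lymphocyte or fibroblast marker passed, of 21 measured. The part of the macrophage marker differences in the results for Zfp36, Egr1 and Egr2 was not tested, and in these bulk samples more cells with a transcript and more transcript per cell cannot be told apart.

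**Figure D4:**
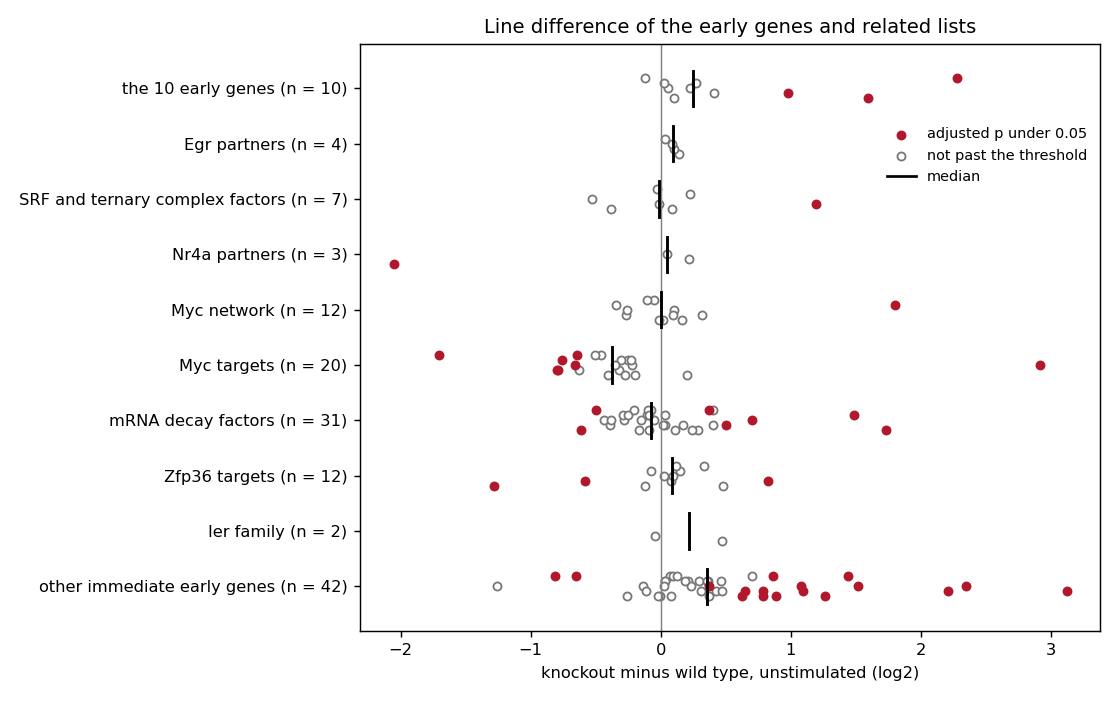
Difference between the unstimulated knockout and wild-type lines (horizontal axis, log2) for the 10 early genes and 9 related lists. Points are genes, filled red where the adjusted p was under 0.05, and black bars are medians, with the number of genes in brackets. Genes of the immediate early list lie mostly above 0 and those of the Myc target list mostly below it.

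The genes whose log2 values over the 10 arrays were most like those of a member were taken by Pearson correlation, as a description without a test. For Egr1 they were Fos (r = 0.993), the lipid transporter gene Mfsd2a (0.993) and the interferon-induced Ifit3 (0.992). For Egr2 they were Xylt1 (0.992), the potassium channel gene Kcnn4 (0.989) and the protein C receptor gene Procr (0.987). For Zfp36 they were Samd9l (0.991), Sptbn1 (0.989) and the nuclear body gene Sp100 (0.987). The arrays of a line share their line, and with the mean of each line removed the correlations of these 9 genes were 0.844 to 0.956. For Myc they were Nav2 (0.943), the urokinase receptor gene Plaur (0.928) and Zbtb38 (0.918), each of which was higher in the knockout line with beads in limma (0.46, 0.63 and 0.51). These calls ended under 13 of 17 alternatives for Nav2, 3 for Plaur and 10 for Zbtb38. Likeness to Myc over the same arrays chose these genes, so the calls are not independent of the Myc values.

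The other 6 genes had partners as follows. Egr3 was most like Spem2, Robo2 and Il25 (r = 0.984 to 0.986), and Nr4a3 most like Mag, Dmbx1 and Ifi44l (0.985 to 0.987), none of which differed between the lines by the test. Egr3 was highest on wild-type bead array 3 (7.59) and knockout bead array 1 (7.57), the arrays with the highest medians (6.10 and 5.97). It was lowest on unstimulated wild-type array 2 (7.05), which had the lowest median (5.75). Nr4a2 and Nr4a3 also had their highest and lowest signals on these arrays. The part of whole-array signal in the likenesses of these genes was not tested. Nr4a2 was most like Ankrd55, H2-Q2 and Kank3 (0.970 to 0.977), and Ier3 most like Insig1, Tob1 and Pithd1 (0.932 to 0.951). Nr4a1 was most like Ubtd2, Per2 and St6galnac1 (0.901 to 0.955), and Ier2 most like Sfxn4, Nlrp10 and Itgax (0.865 to 0.914). Of these 6 partners, Ubtd2 (0.40) and Nlrp10 (0.57) were higher in the unstimulated knockout line, calls that ended under 12 and 8 of 17 alternatives. They too were chosen by likeness over the same arrays, so these calls are not independent of the members' values.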

How the data were processed

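Gene expression was measured on 10 Affymetrix arrays. The deposited table holds the authors' log2 signals for each probe set. RMA is named in the submitters' processing notes, with no version or filter. Of 28853 probe sets, 21789 carried 1 gene symbol in the platform annotation, 1621 several and 5443 none. Symbols were updated by Entrez ID for 21698. Each of the 19938 genes was read by its single-symbol probe set with the highest mean, with no filter on low signal.

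Groups came from the labels. All 10 arrays entered 1 limma fit (version 3.58.1, R 4.3.3, lmFit and eBayes) of the 4 group means, with 6 residual degrees of freedom and a prior of 3.23. Its 5 contrasts were tested two-sided with Benjamini-Hochberg adjustment over all genes, at an adjusted p under 0.05. The fit was run on simulated data with planted shifts and independent noise in each gene. That simulation held no array that stood apart as wild-type bead array 3 did, so it does not bear on such an array. Precision is limited by there being 2 or 3 arrays a group. Promoter sequences are from RefSeq (GRCm38.p6).

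The members and lists were chosen with earlier results of these data known. All 10 members were named in each contrast, up to 4 genes per list that passed and had the largest change, and the 3 genes most like each member (SD at least 0.5 times the member's, predicted genes and small RNAs left out). Srf, Nab1, Nab2, Rxrb, Rxrg, Zfp36l1, Zfp36l2, Csf1r, Mapkapk2 without beads and Mapkapk3 with beads were named besides, after their values were seen. The alternatives were another variance prior, median centring, quantile normalisation, array weights, a filter on dim genes, the mean of a gene's probe sets, the compared groups alone and each array left out in turn.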

Additional observations from a re-analysis of the deposited data

How the results depend on the processing

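The 10 members gave 50 differences over the 5 contrasts and 835 values under the alternatives. Of these, 822 kept their side of the threshold, 5 lost a call (Myc and Zfp36 with beads), 7 gained one (Nr4a1 and Nr4a2) and 1 reversed. The reversal was Egr3 in the wild-type bead response with array weights, at -0.16. Nr4a1 in the unstimulated comparison passed under 5 alternatives, with adjusted p-values from 0.004 to 0.339 over all 17. The number of members that passed between the bead arrays of the lines was 2 with the compared groups alone and 5 with array weights, and ran from 2 to 4 with 1 array left out. The lowest count came without knockout bead array 2. Array weights passed 2 members in the wild-type bead response, but their estimation stopped before its tolerance was reached, and the weights ran from 0.0701 (wild-type bead array 3) to 12.1. The cause of these changes was not tested.

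Of all genes, 1645 passed between the unstimulated lines. That was 756 after median centring, 2483 after quantile normalisation, 4451 with array weights and 3262 with the compared groups alone, and 681 to 3668 with 1 array left out. With beads 1439 passed, against 704, 2263, 6083 and 480 in the same order, and 597 to 4171 with 1 array left out. Among the fits with 1 array left out, the counts were the highest without wild-type bead array 3 (3668 and 4171). Low counts came without unstimulated knockout array 1 (681) or 2 (733) or unstimulated wild-type array 1 (1048) or 3 (988), and with beads without knockout array 1 (693) or 2 (597). Array weights passed 9174 genes in the wild-type bead response, 16 in the knockout response and 9 for the difference between the responses. Leaving out 1 array gave 0 to 17 genes in the knockout response and 0 to 1 for the difference, the highest again without wild-type bead array 3.

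Of 65 calls on other named genes that were run under the alternatives, 28 ended under at least 1. The calls of Csf1r in both comparisons of the lines, Mapkapk2 without beads and Mapkapk3 with beads were not run under them. Without beads the calls that ended were those of Adgre1, Cad, Ccl3, Elk3, Mapkapk3, Nlrp10, Nolc1, Procr, Rgs2, Tnf, Ubtd2, Xylt1 and Zc3h12c. With beads they were Adgre1, Ccl2, Ccl3, Fcgr1, Mapkapk2, Mxd4, Nav2, Nolc1, Plaur, Procr, Ptgs2, Tnf, Zbtb38, Zc3h12c and Zc3h12d. No paired analysis was possible because no replicate number in the labels is common to the groups. A fit that leaves 1 knockout array in a group assumes that it varies like the other groups.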

Other observations

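Wild-type bead array 3, the array with the highest median, was the highest of the 6 wild-type arrays for Egr1 (6.41), Egr3 (7.59), Nr4a1 (6.67), Nr4a2 (6.36) and Nr4a3 (4.74), and the lowest for Zfp36 (6.09) and Ier3 (6.62). On the other 2 wild-type bead arrays the values were 5.96 and 6.06 for Egr1, 7.20 and 7.19 for Egr3, 4.38 and 4.48 for Nr4a3, and 6.89 and 6.84 for Zfp36. The part of that array's signal distribution in these values was not tested.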
